A study of Mus musculus with 64 samples.

Results

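The genes described here are 9 cytokine receptor genes of mouse natural killer (NK) cells: Il12rb1, Il12rb2, Il18r1, Il18rap, Il21r, Il10ra, Il27ra, Tgfbr1 and Tgfbr2. They were chosen by name, as receptor chains for IL-12, IL-18, IL-21, IL-10, IL-27 and TGF-beta, and make up 9 of the 36273 gene symbols counted. All 9 were abundant enough to be tested. They were measured by bulk 3' mRNA sequencing in 64 libraries of spleen NK cells, which fall into 18 groups.

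Every group had a culture period of 5 days in a low dose of IL-2 with IL15:IL15Ra complex. They were then left untreated, given prostaglandin E2 (PGE2, 100 ng/ml) or given CM, medium conditioned by PGE2-producing control BRAFV600E tumour cells. In unstimulated groups the treatment lasted 5 h. In stimulated groups 1 h of treatment was followed by 4 h with anti-NK1.1, an antibody that crosslinks the activating receptor NK1.1. The 3 genotypes were WT (C57BL/6J), EP2KO (Ptger2-/-Ptger4fl/fl) and EP2/EP4KO (GzmbCrePtger2-/-Ptger4fl/fl). EP2 and EP4, encoded by Ptger2 and Ptger4, are PGE2 receptors that raise cyclic AMP. Both knockout genotypes carry the floxed Ptger4 allele, and in EP2/EP4KO the Cre comes from Gzmb, a gene of cytotoxic lymphocytes, so deletion of Ptger4 depends on Gzmb expression. WT and EP2KO groups had 4 libraries each, EP2/EP4KO groups had 3, and unstimulated WT cells with PGE2 had 2 (replicates 2 and 4). Whether the replicates of a group came from different mice is not stated in the labels, and p-values therefore measure only the spread among the samples at hand, possibly a technical one.

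IL-12 binds a receptor of the chains IL-12Rβ1 and IL-12Rβ2 and signals through the kinases TYK2 and JAK2 to STAT4. IL-18 binds IL-18Rα (Il18r1), which recruits the accessory chain IL-18Rβ (Il18rap) and the adaptor MYD88. In NK cells these cytokines together drive interferon-gamma production. IL-21 and IL-27 also act on NK cells, through Il21r with the common gamma chain and Il27ra with gp130. IL-10 acts through Il10ra with Il10rb, and TGF-beta, which restrains NK cells, binds TGFBR2, which then recruits and activates TGFBR1.

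Library totals ran from 753973 to 1693750 counts, with a median of 1256163, which limits the precision of genes with few counts. Levels below are CPM (counts scaled to a library of 1000000) after normalisation by the trimmed mean of M values. They are compared within a gene, across libraries. All 12 NK cell markers were counted in every library, and their summed share was 0.556% to 1.21% of counts. T cell markers took 0.0167% to 0.0384%, and the lists for B cells, macrophages and dendritic cells, neutrophils and type 1 innate lymphoid cells took at most 0.0544% in any library. The female-expressed Xist had 532 to 1234 counts in WT and EP2KO libraries and 43 to 80 in EP2/EP4KO, and the Y-linked Ddx3y was at most 8 in the former and 69 to 224 in the latter. By these counts EP2/EP4KO differs from EP2KO in sex as well as in Ptger4 and the Cre, and the effects of these cannot be told apart. Why the EP2/EP4KO libraries still held 43 to 80 Xist counts was not tested. Ptger2 (3 to 47 counts in WT, 3 to 16 in EP2KO) and Ptger4 (12 to 95 counts in EP2KO, 35 to 176 in EP2/EP4KO) were counted in every genotype, and since 3' tags may lie outside the deleted parts these counts check neither label. In bulk samples, fewer cells of a type and less RNA per cell cannot be told apart.

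Positions are from GENCODE M21 on GRCm38, and all 9 are protein-coding genes. Il18r1 (chromosome 1, 40465552 to 40500854, plus strand) and Il18rap (chromosome 1, 40515362 to 40551705, plus strand) are neighbours, 14.5 kb apart. Il12rb2 lies on chromosome 6 from 67291318 to 67376188 on the minus strand, and 1519 bases of its exons are shared with Serbp1 on the opposite strand. Counting by strand is not given in the sources used here, so Il12rb2 counts could include reads of Serbp1, whose own values are given beside those of Il12rb2. Il27ra (chromosome 8, 84030294 to 84042589, minus strand) shares 2 exonic bases with Palm3. Il12rb1 lies on chromosome 8 (70808449 to 70821424), Il21r on chromosome 7 (125603429 to 125633570), Tgfbr1 on chromosome 4 (47353222 to 47414931), Tgfbr2 on chromosome 9 (116084293 to 116175360) and Il10ra on chromosome 9 (45253837 to 45269149).

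The RefSeq promoter table (GRCm38.p6) held windows for 6 of the 9 genes. Those of Il12rb2, Il21r and Tgfbr2 are shown because each of these genes was called in at least 4 comparisons, with the 250 bases before each start site written 5' to 3' on the strand of the gene. Capitals mark matches, on either strand, to TGACG (the short form of the cAMP response element), TGACGTCA (the full element), TTCNNNGAA (a STAT site) or TGANTCA (an AP-1 site). The short form is contained in the full one.
Il12rb2, chr6:67376189-67376438, minus strand: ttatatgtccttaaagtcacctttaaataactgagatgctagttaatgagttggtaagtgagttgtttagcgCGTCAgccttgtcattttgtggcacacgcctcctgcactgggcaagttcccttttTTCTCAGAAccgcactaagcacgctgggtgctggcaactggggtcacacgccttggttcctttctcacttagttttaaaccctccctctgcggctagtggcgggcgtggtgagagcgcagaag
Il21r, chr7:125603179-125603428, plus strand: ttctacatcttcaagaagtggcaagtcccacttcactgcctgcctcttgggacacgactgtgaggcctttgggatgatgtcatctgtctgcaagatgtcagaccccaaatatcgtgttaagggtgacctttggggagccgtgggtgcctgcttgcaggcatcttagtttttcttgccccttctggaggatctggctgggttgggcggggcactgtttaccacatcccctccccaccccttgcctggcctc
Tgfbr2, chr9:116175364-116175613, minus strand: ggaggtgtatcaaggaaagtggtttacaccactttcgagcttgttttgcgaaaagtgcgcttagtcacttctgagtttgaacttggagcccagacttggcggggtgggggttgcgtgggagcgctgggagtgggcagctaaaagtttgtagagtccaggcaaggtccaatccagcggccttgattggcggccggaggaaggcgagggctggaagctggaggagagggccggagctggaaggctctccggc
The Il12rb2 window held 1 short form (CGTCA, its reverse complement, 178 bases before the start) and 1 STAT site (TTCTCAGAA, 123 bases before it). Among 32851 windows of the same length, 17.8% held a TGACG and 7.02% a TTCNNNGAA site. The Il21r and Tgfbr2 windows held none of the 4 motifs, and TGACGTCA occurred in 1.55% and TGANTCA in 6.75% of all windows. These matches describe the letters of the windows only.

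Across the 18 groups the genes differed in how far they ranged. Il27ra spanned the widest range of group means, from 3.47 CPM in unstimulated WT cells with PGE2 to 26.3 CPM in stimulated untreated WT cells, a ratio of 7.58. Il21r followed at 4.25 and Il12rb2 at 3.39. Il18r1 and Tgfbr1 ranged least, with ratios of 1.79 and 1.51 between the highest and lowest group mean. Precision also differed, because a library held 3 to 51 counts of Il27ra and 5 to 44 of Il12rb1 but 163 to 727 of Il18rap.

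**Figure D1:**
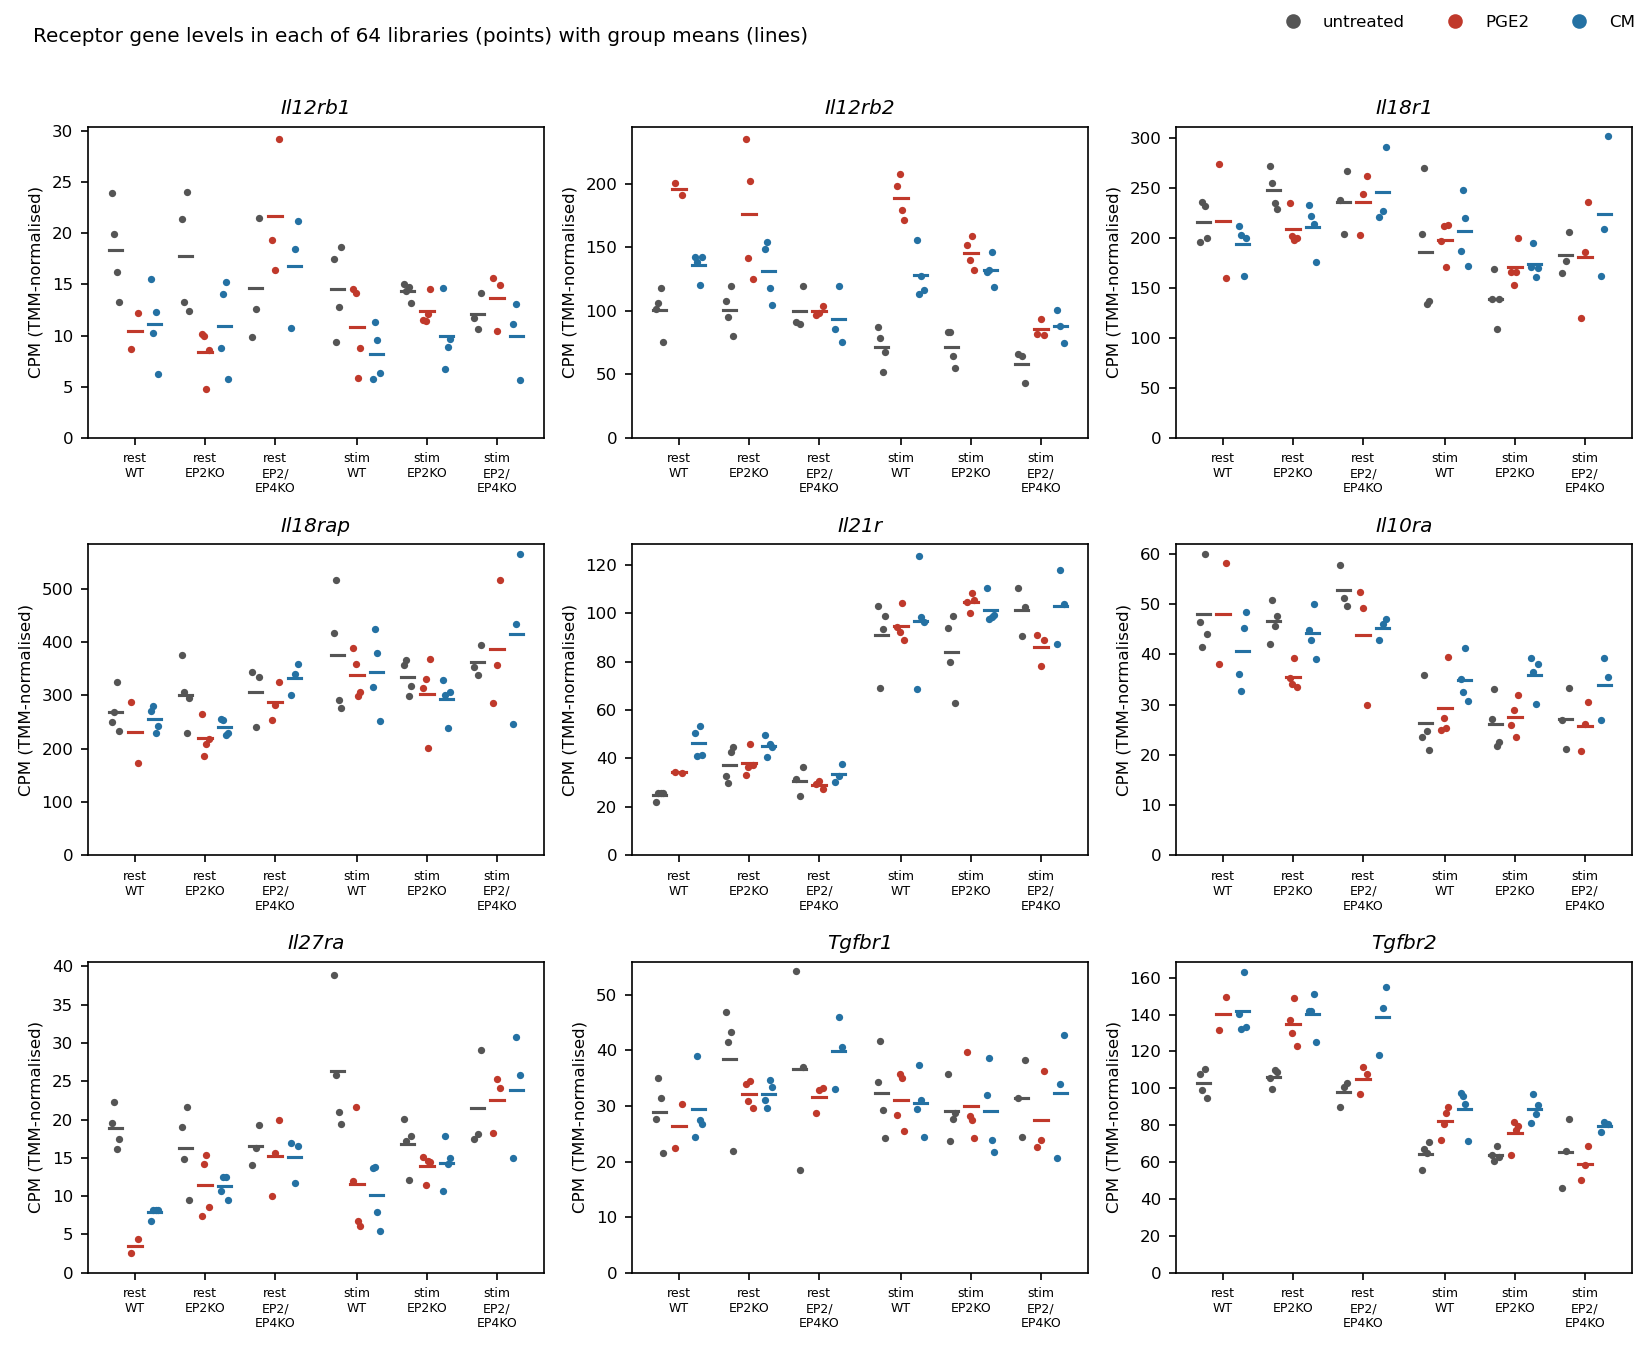
Level of each receptor gene in CPM (vertical axes, linear and starting at 0) in the 64 libraries, by genotype and state (rest, unstimulated; stim, with anti-NK1.1) and treatment (colour). Points are libraries and lines group means. Il12rb2 is higher with PGE2 in WT and EP2KO, Il27ra is lower with PGE2 or CM in WT, and Il21r separates stimulated from unstimulated groups.

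Il12rb2, the signalling chain of the IL-12 receptor, rose with PGE2 in WT and EP2KO cells and fell with anti-NK1.1 in all 3 genotypes. In unstimulated WT cells the untreated libraries stood at 101.7, 106.1, 118.1 and 75.6 CPM and the PGE2 libraries at 200.5 and 191.2 CPM. Both treated libraries lay above every untreated one. The log2 fold change was 0.97 ± 0.19 (SE, edgeR adjusted p = 5.27e-04). In that comparison 2 of the 9 receptor genes were called (adjusted p under 0.05), against a background of 2.97% of the 10723 genes tested, and the other was Il27ra.

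In unstimulated EP2KO cells Il12rb2 stood at 107.3, 95.46, 119.5 and 80.13 CPM untreated and at 235.5, 141.6, 202.4 and 125.1 CPM with PGE2. The groups did not overlap, though the treated libraries spread widely, and the log2 fold change was 0.81 ± 0.16 (edgeR adjusted p = 6.09e-04). There 2 of the 9 were called, against a background of 3.15%. The highest treated value (235.5 CPM) came from the deepest library of its group (1400733 counts) and the lowest (125.1 CPM) from the shallowest (1055157). Over all libraries, deviations of Il12rb2 log2 CPM from the group means had an r of 0.476 with depth, the largest in size of the 9 genes. The part of depth in this spread was not tested. In EP2/EP4KO cells the values were 91.49, 89.72 and 119.3 CPM untreated and 96.77, 98.49 and 103.7 CPM with PGE2, a log2 difference of -0.01 ± 0.19 with a 95% interval of -0.39 to 0.37. No receptor gene was called there by edgeR or DESeq2 and 0 had an unadjusted p under 0.05, while the background was 0% of all genes by either tool, with 184 genes at an unadjusted p under 0.05.

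PGE2 also raised Il12rb2 in cells given anti-NK1.1. Stimulated WT libraries stood at 87.59, 78.39, 52.14 and 67.75 CPM untreated and at 198.0, 207.7, 179.2 and 171.4 CPM with PGE2. All treated libraries were above all untreated ones, with a log2 fold change of 1.40 ± 0.17 (edgeR adjusted p = 1.21e-09). EP2KO libraries stood at 83.06, 83.37, 64.11 and 55.17 CPM untreated and 151.8, 139.6, 158.5 and 131.7 CPM with PGE2, again without overlap, at 1.02 ± 0.17 (adjusted p = 8.70e-06). Of the 9 genes, 2 were called in WT (background 15.6%) and 1 in EP2KO (background 7.29%). In EP2/EP4KO the untreated libraries were at 65.67, 64.38 and 43.21 CPM and those with PGE2 at 81.53, 93.24 and 81.0 CPM. These groups did not overlap either, but the log2 difference of 0.56 ± 0.20 had an unadjusted p of 0.00688 and an edgeR adjusted p of 1. No gene of the table was called in that comparison (background 0%) by edgeR or DESeq2, and 260 had an unadjusted p under 0.05.

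CM, which holds PGE2 among other tumour cell products, raised Il12rb2 in stimulated WT and EP2KO cells. In unstimulated cells the means were 136 ± 10.4 CPM in WT (SD, n = 4) and 132 ± 23.9 CPM in EP2KO (n = 4), and the log2 differences of 0.44 ± 0.17 and 0.39 ± 0.17 were not called (edgeR adjusted p = 0.0888 and 0.217). The WT libraries with CM (120 to 142 CPM) nonetheless lay above every untreated one (75.6 to 118 CPM). With the replicate number as a block WT was called (0.45 ± 0.14, edgeR adjusted p = 0.016), where the replicate check was not met. The genes called in the whole table rose there from 883 to 1755. The EP2KO groups overlapped. In stimulated WT cells with CM the 4 libraries stood at 155.5, 112.9, 127.1 and 116.2 CPM, above every untreated library, and the log2 fold change was 0.84 ± 0.17 (adjusted p = 1.77e-04). In stimulated EP2KO cells with CM they stood at 130.4, 132.4, 146.0 and 118.6 CPM, also without overlap, at 0.88 ± 0.17 (adjusted p = 1.14e-04). In stimulated EP2/EP4KO cells with CM the 3 libraries stood at 100.6, 87.87 and 74.94 CPM, above the untreated ones, with a difference of 0.60 ± 0.20 that was not called (adjusted p = 0.384). Set directly against PGE2, CM gave lower Il12rb2 by -0.52 ± 0.19 in unstimulated WT, -0.42 ± 0.16 in unstimulated EP2KO and -0.56 ± 0.16 in stimulated WT. The last of these had no overlap between the groups, an unadjusted p of 8.57e-04 and an adjusted p of 0.483. CM against PGE2 had a background of 0% in each genotype without stimulation and in stimulated EP2/EP4KO, and of 0.00933% in stimulated WT and EP2KO. No receptor gene was called by edgeR or DESeq2 in any of these 6 comparisons. At an unadjusted p under 0.05 they held 3, 1 and 1 receptor genes without and 1, 1 and 1 with stimulation (WT, EP2KO, EP2/EP4KO). The share of all genes at that cut was 2.75%, 3.83% and 4.82% without and 4.58%, 4.11% and 5.86% with stimulation.

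Anti-NK1.1 alone lowered Il12rb2 from 100 ± 17.9 to 71.5 ± 15.2 CPM in WT (SD, n = 4 each), by -0.48 ± 0.17 on the log2 scale (edgeR adjusted p = 0.0196), with overlap between the groups. In EP2KO the means were 101 and 71.4 CPM (-0.49 ± 0.17, adjusted p = 0.02, with overlap). In EP2/EP4KO the means were 100 and 57.8 CPM, without overlap (-0.79 ± 0.20, adjusted p = 0.00128). Leaving out the third untreated library ended the call in WT (-0.39 ± 0.18, adjusted p = 0.0808), as it did in EP2KO (-0.41 ± 0.18, adjusted p = 0.0872). In WT the call also ended without stimulated replicate 3 (-0.36 ± 0.18, adjusted p = 0.102) or unstimulated replicate 2 (-0.44 ± 0.19, adjusted p = 0.0504).

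Serbp1, the gene that overlaps Il12rb2, moved the other way where it was called. Its mean was 1020 CPM in unstimulated and 1760 CPM in stimulated untreated WT cells, a log2 fold change of 0.78 ± 0.12 (adjusted p = 1.14e-07). With PGE2 it was at 951 CPM in unstimulated WT cells (-0.10 ± 0.14, not called), and it fell to 1380 CPM in stimulated ones (-0.35 ± 0.12, adjusted p = 0.0259).

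Il12rb1, the chain shared by the receptors for IL-12 and IL-23, was low and its values rest on few counts. In unstimulated EP2KO cells it stood at 21.45, 13.3, 24.07 and 12.4 CPM untreated and at 10.18, 9.993, 4.797 and 8.597 CPM with PGE2. All treated libraries were below all untreated ones and the gene fell by 1.06 ± 0.31 on the log2 scale (edgeR adjusted p = 0.0429). The call ended under DESeq2 (adjusted p = 0.0504) and without any of 6 of the 8 libraries, for example without untreated replicate 3 (-0.88 ± 0.34, adjusted p = 0.194). In unstimulated WT cells it stood at 23.98, 19.94, 16.2 and 13.29 CPM untreated and 8.642 and 12.17 CPM with PGE2, a difference of -0.83 ± 0.38 that was not called (adjusted p = 0.301) though the groups did not overlap. CM gave -0.74 ± 0.31 in WT and -0.73 ± 0.31 in EP2KO without stimulation, neither of them called. In unstimulated EP2/EP4KO cells the mean was 14.7 ± 6.09 CPM untreated and 21.7 ± 6.72 CPM with PGE2 (SD, n = 3 each), a difference of 0.57 ± 0.31. Thus with PGE2 in unstimulated EP2KO cells the IL-12 receptor chains changed in opposite directions, Il12rb2 upwards and Il12rb1 downwards. In stimulated EP2KO cells Il12rb1 was at 14.3 CPM untreated and 12.4 CPM with PGE2 and was not called (-0.22 ± 0.30, adjusted p = 0.795).

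The difference between EP2/EP4KO and EP2KO in the response to PGE2 was tested as an interaction. In unstimulated cells it was 1.63 ± 0.44 for Il12rb1 (edgeR adjusted p = 0.103) and -0.82 ± 0.25 for Il12rb2 (adjusted p = 0.238), with 0.354% of all genes called. The replicate check described under the processing was made for single comparisons within a genotype and not for this interaction. PGE2 in unstimulated EP2KO and in unstimulated EP2/EP4KO each met it. With the replicate number as a block, the values were 1.63 ± 0.41 (edgeR adjusted p = 0.0228) and -0.81 ± 0.20 (adjusted p = 0.0215). The genes called in the whole table rose from 38 to 96 of 10723. No receptor gene was called in the corresponding interactions for CM in unstimulated cells (background 0.214%), PGE2 in stimulated cells (0.951%) or CM in stimulated cells (0.345%), by edgeR or DESeq2. Their receptor genes with an unadjusted p under 0.05 numbered 1, 1 and 0, beside 5.23%, 8.5% and 7.2% of all genes. For EP2KO minus WT the background was 0% in all 4 such interactions by both tools, no receptor gene was called, and 1 gene of the 9 had an unadjusted p under 0.05 in each. It was Il27ra in 3 of them and Il21r for CM in unstimulated cells. Of all genes, 2.54% and 3.23% had such a p without stimulation and 4.34% and 2.48% with it (PGE2, CM).

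Other genes of the IL-12 and IL-18 pathways came from a list of 22, of which 15 were tested. Anti-NK1.1 in WT raised 3 and lowered 3 of the 15, a share near the 42% of all genes called, and their median log2 difference was 0.225 against 0.009 over all genes. Jak2 rose from 71.1 to 321 CPM (2.17 ± 0.17, adjusted p = 8.04e-17), and Traf6 and Map3k7, which act downstream of IL-18 signalling, rose by 1.16 ± 0.20 and 1.08 ± 0.21. Stat4, the main transcription factor of IL-12, fell from 354 to 168 CPM (-1.07 ± 0.16, adjusted p = 1.57e-07). PGE2 in stimulated WT cells raised 2 and lowered 3 of the 15, where 15.6% of all genes were called, with a median of -0.3 against -0.052. Stat4 rose from 168 to 302 CPM (0.84 ± 0.16), Irak2, a kinase of the MYD88 complex, rose by 0.96 ± 0.19, Jak2 fell from 321 to 105 CPM (-1.61 ± 0.16), and Traf6 fell by 0.61 ± 0.19. CM in stimulated WT cells (background 15.4%) raised 2 and lowered 2 of the 15, namely Stat4 by 0.59 ± 0.16, Irak2 by 0.94 ± 0.19, Jak2 by -1.43 ± 0.16 and Traf6 by -0.61 ± 0.19. Without stimulation Irak2 alone of the 15 was called in WT, with PGE2 (33.9 to 70.2 CPM, 1.05 ± 0.20; background 2.97%) and with CM (0.97 ± 0.17; background 8.23%). Thus in stimulated WT cells with PGE2, Il12rb2 and Stat4 were higher and Jak2 lower than without PGE2. The PGE2 and CM comparisons share their untreated libraries.

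**Figure D2:**
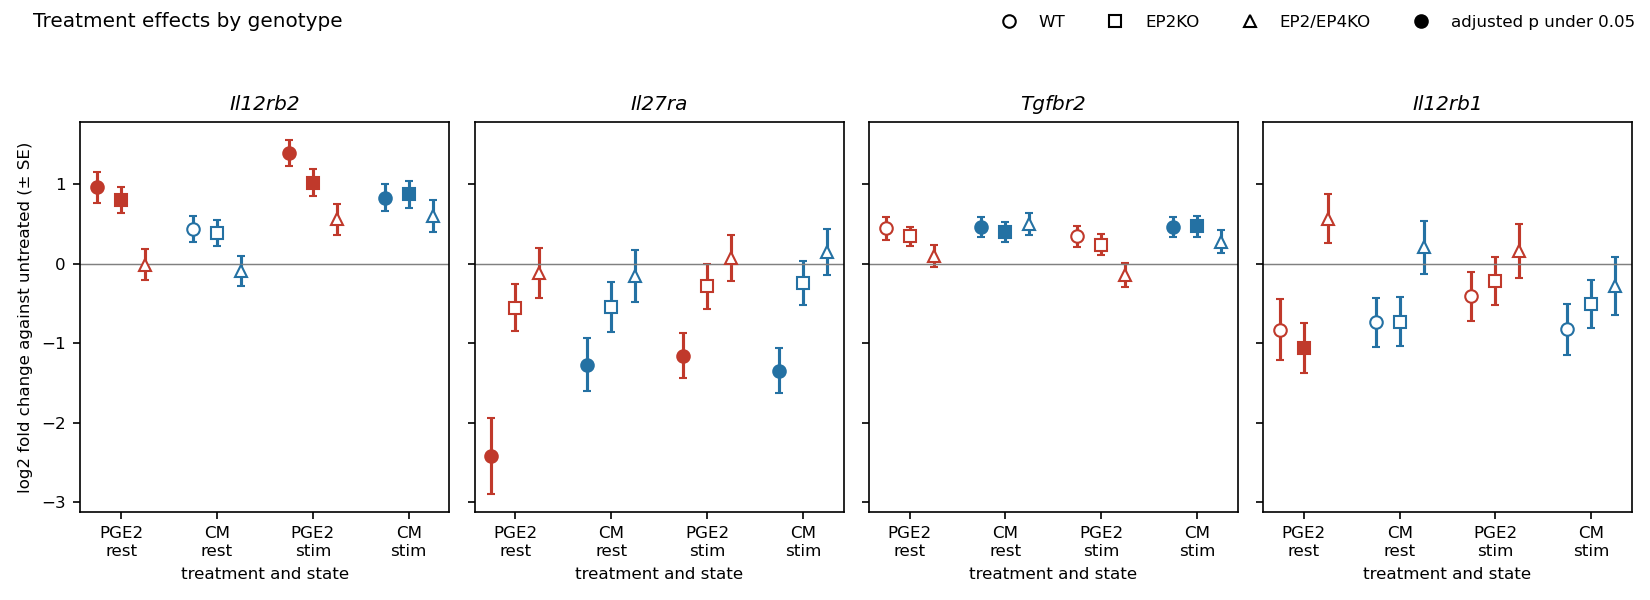
log2 fold change against untreated cells (vertical axis, ± SE from edgeR) of Il12rb2, Il27ra, Tgfbr2 and Il12rb1 for PGE2 (red) and CM (blue) in unstimulated (rest) and stimulated (stim) cells. Circles are WT, squares EP2KO and triangles EP2/EP4KO, and filled symbols have an adjusted p under 0.05. No triangle is filled. The Il27ra values are called in WT alone and the Il12rb2 values with PGE2 in both WT and EP2KO.

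Il18r1 and Il18rap, the subunits of the IL-18 receptor, were not called with PGE2 or CM in any genotype or state. The 24 log2 differences of the pair ranged from -0.45 for Il18rap with PGE2 in unstimulated EP2KO cells to 0.33 for Il18r1 with CM in stimulated EP2KO cells. For PGE2 in stimulated WT cells the 95% intervals were -0.26 to 0.44 for Il18r1 and -0.53 to 0.23 for Il18rap. The exception under the replicate block, which the replicate check allows here, was the lowest value: Il18rap with PGE2 in unstimulated EP2KO cells at -0.44 ± 0.14 (adjusted p = 0.0473), where the means were 302 CPM untreated and 220 CPM treated. The block raised the genes called in the whole table for that comparison from 338 to 646.

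With anti-NK1.1 the subunits differed in what was called. In EP2KO cells Il18r1 stood at 271.7, 254.3, 234.2 and 228.9 CPM unstimulated and at 138.2, 168.9, 108.3 and 138.3 CPM stimulated. No libraries overlapped, and the fall was -0.83 ± 0.18 (edgeR adjusted p = 1.04e-04). Il18rap in the same libraries had means of 302 ± 60.6 and 335 ± 31.8 CPM (SD, n = 4 each) and was not called (0.15 ± 0.19). In WT the order was different: Il18rap stood between 233.4 and 324.9 CPM unstimulated and at 416.6, 516.4, 291.8 and 275.7 CPM stimulated. These groups overlapped, and the rise of 0.48 ± 0.19 (adjusted p = 0.0379) was lost without any of 5 of the 8 libraries, most of all without stimulated replicate 2 (0.24 ± 0.20, adjusted p = 0.358). Il18r1 in WT had means of 215 and 186 CPM and was not called (-0.21 ± 0.17). In EP2/EP4KO neither was called without the block. With the block, which the replicate check allows there, Il18r1 was lower with anti-NK1.1 (236 to 182 CPM, -0.38 ± 0.14, adjusted p = 0.0269). The block raised the genes called in the whole table for that comparison from 3242 to 4113. The difference between EP2KO and WT in the effect on Il18r1 was -0.63 ± 0.25 (unadjusted p = 0.0133, adjusted p = 0.96).

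Within groups the subunits varied together. Over 64 libraries, the deviations of log2 CPM from the group means had a Pearson r of 0.818 and a Spearman rho of 0.793 between Il18r1 and Il18rap, the highest of the 36 pairs among the 9 genes. The r was 0.914 over the 22 WT, 0.51 over the 24 EP2KO and 0.905 over the 18 EP2/EP4KO libraries, and 0.795 without the 2 libraries farthest from the median of Il18r1. Libraries of the same replicate number may share a source and so are not independent, and no p is given. The r of these deviations with library depth was 0.0561 for Il18r1 and 0.0536 for Il18rap. Stimulated untreated WT replicate 2, with 269.7 CPM of Il18r1 and 516.4 CPM of Il18rap, was the highest of its group for both, as was stimulated EP2/EP4KO replicate 3 with CM, with 301.4 and 564.9 CPM. Between groups the relation was not seen, with an r of -0.244 over the 18 group means. Chains of the IL-12 receptor (r = 0.173) and of the TGF-beta receptor (r = 0.12) showed weak relations within groups, though Il12rb1 rests on 5 to 44 counts per library. Pairs of genes from different receptors ranged from -0.153 (Il12rb1 and Il10ra) to 0.511 (Il18rap and Tgfbr1). Over the EP2KO libraries Il18r1 and Il10ra had an r of 0.55, above the 0.51 of the IL-18 receptor subunits.

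**Figure D3:**
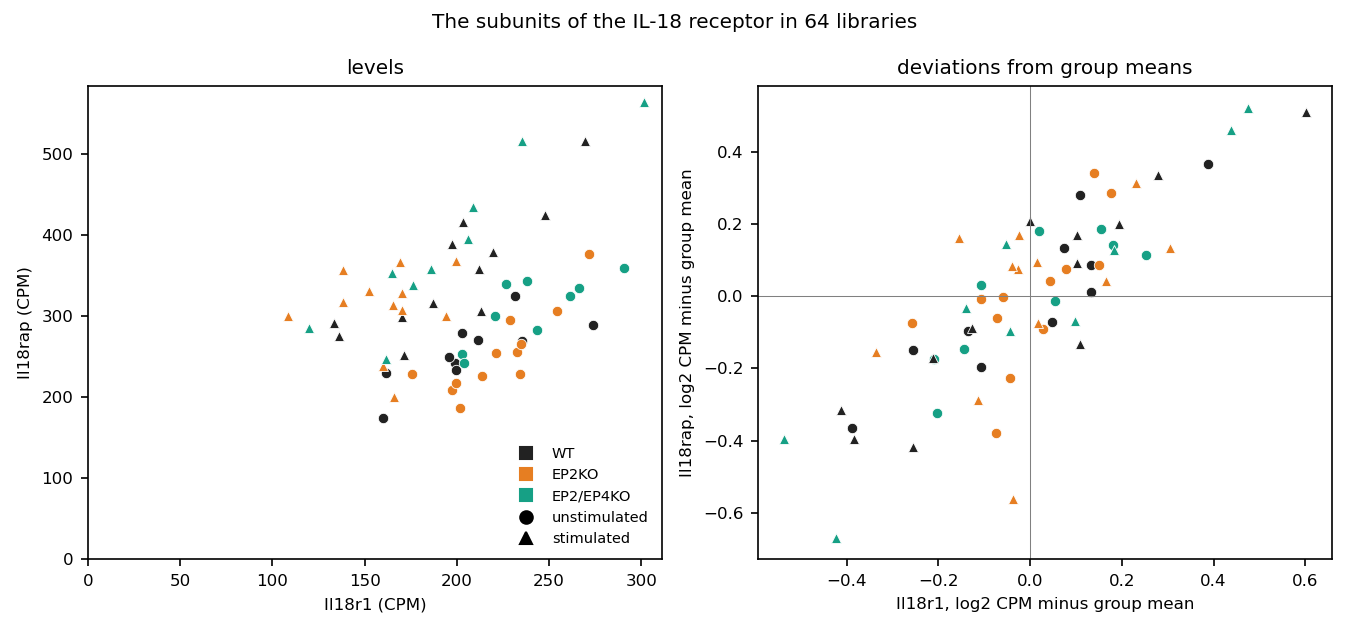
Il18rap against Il18r1 in the 64 libraries, as CPM (left, axes from 0) and as log2 CPM minus the mean of the group (right). Colours are genotypes, circles unstimulated and triangles stimulated libraries. On the right the deviations of the subunits rise together (r = 0.818).

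Il21r, the receptor chain for IL-21, rose with anti-NK1.1 in every genotype. In WT it stood at 21.8, 25.52, 25.72 and 25.75 CPM unstimulated and at 102.8, 69.04, 93.29 and 98.9 CPM stimulated. The lowest stimulated library was above every unstimulated one, with a log2 fold change of 1.88 ± 0.16 (edgeR adjusted p = 3.09e-15). In EP2KO the libraries stood at 32.58, 29.73, 42.52 and 44.83 CPM and at 93.8, 79.77, 98.76 and 62.94 CPM (1.17 ± 0.15, adjusted p = 5.15e-09). In EP2/EP4KO they stood at 31.67, 24.47 and 36.32 CPM and at 110.2, 90.63 and 102.7 CPM (1.71 ± 0.17). The groups did not overlap in either knockout genotype. The smaller rise in EP2KO than in WT was a difference of -0.71 ± 0.22 (unadjusted p = 0.00232, adjusted p = 0.96). The unstimulated level, which is itself a term of that difference, was higher in EP2KO than in WT (0.59 ± 0.18, without overlap, unadjusted p = 0.00123, adjusted p = 0.493).

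CM raised Il21r in unstimulated WT cells, from the values above to 50.61, 40.99, 53.38 and 41.28 CPM. The groups did not overlap and the log2 fold change was 0.91 ± 0.18 (edgeR adjusted p = 2.30e-04). PGE2 in the same cells gave 34.57 and 33.89 CPM, also above all untreated libraries but not called (0.47 ± 0.22, adjusted p = 0.295). In stimulated WT cells CM gave a mean of 96.8 ± 22.4 CPM against 91.0 ± 15.2 CPM untreated (SD, n = 4 each), a difference of 0.09 ± 0.14. The change of the CM effect with stimulation was -0.82 ± 0.22 (adjusted p = 0.0311). It was the 1 called interaction of a receptor gene, against a background of 2.19% of all genes, and the call ended without any of 9 of the 16 libraries, the least effect being -0.62 ± 0.22 without stimulated CM replicate 1 (adjusted p = 0.134). Interactions of treatment with stimulation had backgrounds of 1.31% (PGE2, WT), 0.326% (PGE2, EP2KO), 0.00933% (PGE2, EP2/EP4KO), 0.634% (CM, EP2KO) and 0% (CM, EP2/EP4KO). None of the 9 was called in these 5 by edgeR or DESeq2, and 1, 1, 1, 3 and 1 had an unadjusted p under 0.05. Of all genes, 12.3%, 7.62%, 2.01%, 8.92% and 2.87% had such a p. CM in unstimulated EP2KO cells gave 45.2 ± 3.75 CPM of Il21r against 37.4 ± 7.38 CPM untreated (0.27 ± 0.17, not called).

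Il27ra, the IL-27-binding chain, fell with both treatments in WT. In unstimulated WT cells it stood at 19.62, 22.33, 16.2 and 17.45 CPM untreated, 2.593 and 4.345 CPM with PGE2 and 6.813, 8.198, 8.213 and 8.256 CPM with CM. Every treated library lay below every untreated one. The fall was -2.42 ± 0.48 with PGE2 (edgeR adjusted p = 3.99e-04) and -1.27 ± 0.33 with CM (adjusted p = 0.00932). The PGE2 libraries held 3 and 5 counts of Il27ra. With PGE2 replicate 4 as the only treated library, assumed to vary like the other groups, the value was -2.10 ± 0.60 (adjusted p = 0.0726). Of the 9 genes, 3 were called with CM (background 8.23%): Il27ra, Il21r and Tgfbr2.

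Stimulated WT cells had 38.84, 25.89, 21.04 and 19.47 CPM of Il27ra untreated. With PGE2 they had 12.0, 21.6, 6.816 and 6.154 CPM, where replicate 2 reached into the untreated range, and the fall was -1.15 ± 0.28 (adjusted p = 0.00177). With CM they had 13.62, 13.81, 7.946 and 5.407 CPM, all below the untreated libraries, and the fall was -1.34 ± 0.28 (adjusted p = 2.93e-04). In EP2KO no such fall was called. Unstimulated EP2KO cells had 19.07, 14.87, 21.66 and 9.539 CPM untreated and 7.465, 14.16, 15.35 and 8.597 CPM with PGE2, overlapping widely (-0.55 ± 0.30, adjusted p = 0.477). CM gave -0.54 ± 0.31 there, and stimulated EP2KO cells gave -0.28 ± 0.28 with PGE2 and -0.24 ± 0.28 with CM. In EP2/EP4KO the 4 differences lay between -0.15 and 0.15. The test of EP2KO against WT gave 1.87 ± 0.59 for PGE2 in unstimulated cells (unadjusted p = 0.00219), 0.87 ± 0.40 for PGE2 in stimulated cells and 1.11 ± 0.40 for CM in stimulated cells (unadjusted p = 0.00738), each with an adjusted p of 1. A difference between WT and EP2KO in the response of Il27ra was thus not called.

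Marker levels moved beside these values. In unstimulated WT cells the 10 T cell markers, 2 of them at a mean under 1 CPM, took 0.0265% to 0.0326% of counts untreated, 0.021% to 0.0231% with PGE2 and 0.0167% to 0.0215% with CM. B cell markers took 0.00682% to 0.00954%, 0.00324% to 0.00448% and 0.00405% to 0.00546%. The 12 NK cell markers took 0.942% to 1.09% of counts untreated, 0.65% to 0.816% with PGE2 and 0.611% to 0.775% with CM. In unstimulated EP2KO cells, where Il12rb2 and Il12rb1 were called with PGE2 and Tgfbr2 with CM, B cell markers took 0.00646% to 0.0109% untreated and 0.00445% to 0.00521% with PGE2, and NK cell markers took 0.732% to 1.07% untreated and 0.556% to 0.721% with CM, both without overlap. In stimulated WT and EP2KO cells the ranges of the T cell, B cell and NK cell markers overlapped between untreated and treated libraries. The part of these markers in the treatment effects, those on Il12rb2, Il12rb1 and Tgfbr2 included, was not tested.

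Il10ra, the ligand-binding chain of the IL-10 receptor, fell with anti-NK1.1 in all genotypes. WT libraries stood at 46.51, 41.47, 60.02 and 44.03 CPM unstimulated and at 23.61, 35.96, 24.7 and 21.03 CPM stimulated. The groups did not overlap and the fall was -0.85 ± 0.18 (edgeR adjusted p = 1.12e-04). Means went from 46.6 to 26.1 CPM in EP2KO (-0.82 ± 0.18) and from 52.8 to 27.2 CPM in EP2/EP4KO (-0.96 ± 0.20), without overlap in either. No treatment changed Il10ra past the threshold. CM in stimulated cells gave 0.40 ± 0.19 in WT, 0.46 ± 0.18 in EP2KO and 0.33 ± 0.21 in EP2/EP4KO, with adjusted p of 0.148, 0.11 and 0.878.

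Partners of these receptors came from a list of 18 genes, of which 12 were tested. Anti-NK1.1 in WT raised 2 and lowered 3 of the 12, a share near the background of 42%, and their median log2 difference was 0.296 against 0.009 over all genes. Il10rb, the second chain of the IL-10 receptor, fell from 122 to 44.1 CPM (-1.47 ± 0.21, adjusted p = 7.86e-08), and Jak1 and Socs1, a kinase and a feedback inhibitor of these receptors, fell by 0.47 ± 0.12 and 0.96 ± 0.29. Stat5a rose by 1.35 ± 0.18. PGE2 raised Stat3, the main transcription factor of IL-10 and IL-21 signalling, from 180 to 717 CPM in unstimulated WT cells (1.99 ± 0.15, adjusted p = 1.55e-15) and from 204 to 852 CPM in stimulated ones (2.07 ± 0.13). CM raised it to 686 and 683 CPM (1.93 ± 0.13 and 1.75 ± 0.13). In unstimulated WT cells Stat3 was the 1 gene of the 12 called with PGE2 (background 2.97%), and CM (background 8.23%) also raised Stat5b and Stat5a and lowered Socs1 (-0.92 ± 0.30). In stimulated WT cells PGE2 (background 15.6%) also raised Stat5b (0.62 ± 0.17) and lowered Il2rg, the common gamma chain that pairs with IL-21R (609 to 401 CPM, -0.60 ± 0.20, adjusted p = 0.0237).

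Tgfbr2, the ligand-binding kinase of the TGF-beta receptor, fell with anti-NK1.1 and rose with CM in WT and EP2KO. WT libraries stood at 107.6, 98.9, 110.5 and 94.7 CPM unstimulated and at 55.6, 66.89, 64.94 and 70.87 CPM stimulated, without overlap, and the fall was -0.67 ± 0.13 (edgeR adjusted p = 1.84e-05). It was -0.73 ± 0.13 in EP2KO (106 to 63.9 CPM) and -0.58 ± 0.15 in EP2/EP4KO (98.0 to 65.3 CPM), also without overlap. With CM, unstimulated WT libraries stood at 140.2, 132.2, 162.9 and 133.1 CPM, all above the untreated ones, a rise of 0.46 ± 0.12 (adjusted p = 0.0117). That call ended without untreated replicate 4 (0.42 ± 0.13, adjusted p = 0.0551) or CM replicate 3 (0.39 ± 0.13, adjusted p = 0.0621). In unstimulated EP2KO the rise was 0.40 ± 0.12 (106 to 140 CPM, adjusted p = 0.0449), without overlap, and Tgfbr2 was the 1 gene of the 9 called (background 4.37%). The EP2KO call ended under another normalisation (RLE, adjusted p = 0.0611) and without any of 7 of the 8 libraries (adjusted p up to 0.142).

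In stimulated cells CM raised Tgfbr2 by 0.47 ± 0.13 in both WT (64.6 to 89.0 CPM, adjusted p = 0.00751) and EP2KO (63.9 to 88.7 CPM, adjusted p = 0.00856). The groups did not overlap in either. Called receptor genes numbered 3 in WT (background 15.4%) and 2 in EP2KO (background 10.4%). In unstimulated EP2/EP4KO cells Tgfbr2 stood at 90.08, 100.8 and 103.0 CPM untreated and at 117.9, 143.4 and 154.9 CPM with CM. These did not overlap, and the difference was 0.50 ± 0.14, beside 0.46 and 0.40 in the other genotypes, but with an unadjusted p of 6.71e-04 it had an adjusted p of 0.818. No gene was called by edgeR in that comparison (background 0%; DESeq2 also 0), with 485 at an unadjusted p under 0.05, of which Tgfbr2 was the 1 receptor gene. In stimulated EP2/EP4KO cells CM gave 0.28 ± 0.15 (background 0.0746%, no receptor gene called by edgeR or DESeq2). Il12rb2 alone of the receptor genes had an unadjusted p under 0.05 there, beside 6.74% of all genes. Without the filter on low counts none of the 4 Tgfbr2 calls with CM remained, with adjusted p of 0.113 to 0.573, while the log2 fold changes were 0.43 ± 0.16 in WT and 0.38 ± 0.16 in EP2KO without stimulation and 0.47 ± 0.17 and 0.48 ± 0.17 with it.

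PGE2 gave Tgfbr2 differences of 0.45 ± 0.15, 0.35 ± 0.12 and 0.10 ± 0.14 in unstimulated WT, EP2KO and EP2/EP4KO cells, and of 0.35 ± 0.13, 0.24 ± 0.13 and -0.14 ± 0.15 in stimulated ones. None was called without the replicate block. With the block, where the replicate check allows it, Tgfbr2 was called in unstimulated EP2KO (0.35 ± 0.11, adjusted p = 0.0439) and in stimulated WT cells (0.35 ± 0.13, adjusted p = 0.0372). In both of these states the untreated libraries did not overlap the treated ones. The block raised the genes called in the whole table there from 338 to 646 and from 1676 to 2330. In unstimulated WT, where the check was not met, the block also gave a call (0.48 ± 0.14, edgeR adjusted p = 0.0233). CM against PGE2 differed by 0.01 ± 0.15 in unstimulated WT cells, with a 95% interval of -0.28 to 0.31.

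Tgfbr1, the kinase that TGFBR2 activates, was not called in any of the 41 comparisons. Its library values ran from 18.54 CPM to 54.19 CPM, both in untreated unstimulated EP2/EP4KO cells, so a single group held the whole range. For anti-NK1.1 the log2 difference was 0.17 ± 0.23 in WT and -0.41 ± 0.23 in EP2KO, and for CM in unstimulated WT cells it was 0.03 ± 0.25 with a 95% interval of -0.47 to 0.52. A change of the size seen for Tgfbr2 with CM lies within that interval.

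Of 29 other TGF-beta pathway genes, 17 were tested. CM in unstimulated WT cells raised 5 of the 17, where 8.23% of all genes were called, with a median log2 difference over the 17 of 0.491 against 0.007 over all genes. Tgfb1, a TGF-beta ligand, rose from 283 to 531 CPM (0.91 ± 0.15, adjusted p = 1.88e-05), and Skil, a repressor of SMAD activity, Smad4, the shared SMAD, and Smad7, an inhibitor of the receptors, rose by 0.94 ± 0.19, 0.53 ± 0.15 and 0.64 ± 0.19. CM raised Tgfb1 in stimulated WT cells from 407 to 663 CPM (0.70 ± 0.15; background 15.4%) and, of the other 16, only Acvr2a, an activin receptor (0.86 ± 0.29). With PGE2, Acvr2a was the 1 gene of the 17 called in stimulated WT cells (12.7 to 23.8 CPM, 0.91 ± 0.29; background 15.6%). Anti-NK1.1 in WT raised 6 and lowered 1 of the 17, a share near the background of 42%, and their median was 0.393 against 0.009. The members with the smallest p were Skil (0.86 ± 0.18), Smad7 (0.80 ± 0.19), Tgfb1 (283 to 407 CPM, 0.52 ± 0.15) and Furin (0.73 ± 0.22).

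**Figure D4:**
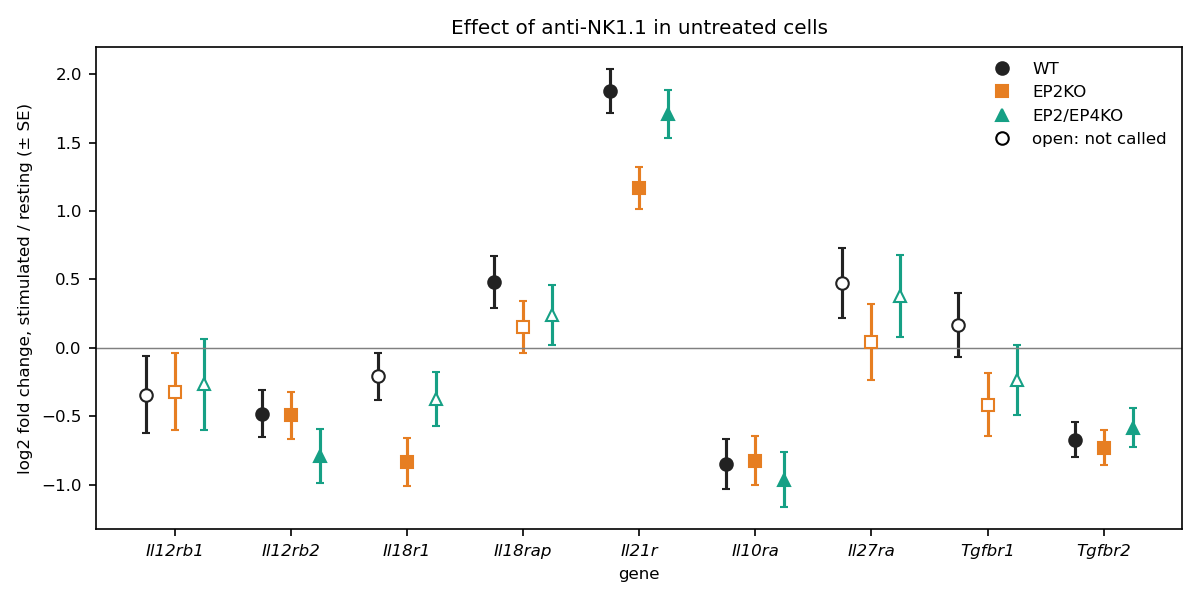
log2 fold change of the 9 receptor genes with anti-NK1.1 in untreated cells (vertical axis, ± SE from edgeR) in WT (circles), EP2KO (squares) and EP2/EP4KO (triangles). Filled symbols have an adjusted p under 0.05. Il21r lies above 0 and Il12rb2, Il10ra and Tgfbr2 below 0 in all 3 genotypes, with every symbol filled.

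Over the set, anti-NK1.1 changed 5 of the 9 genes in WT (2 higher, 3 lower), where 42% of all genes were called, 5 in EP2KO (1 higher, 4 lower; background 33.3%) and 4 in EP2/EP4KO (1 higher, 3 lower; background 30.2%). The receptor counts were above these shares in each genotype, a difference that was not tested and rests on 9 genes. Of all genes, 19.1%, 15% and 13.8% were called lower in WT, EP2KO and EP2/EP4KO. The median log2 difference of the 9 was -0.208, -0.415 and -0.267, against 0.009, 0.007 and 0.005 over all genes. The 6 type 1 innate lymphoid cell markers, all with a mean of at least 1 CPM, took 0.0293% to 0.0425% of counts in untreated unstimulated WT libraries and 0.00901% to 0.02% in stimulated ones. The share went from a range of 0.035% to 0.051% to one of 0.0119% to 0.0199% in EP2KO, and from 0.025% to 0.0429% to 0.00809% to 0.0197% in EP2/EP4KO. The 7 B cell markers, 4 of them at a mean under 1 CPM, took 0.00682% to 0.00954% unstimulated and 0.00333% to 0.00614% stimulated in WT, 0.00646% to 0.0109% and 0.00481% to 0.00549% in EP2KO, and 0.00971% to 0.0107% and 0.00592% to 0.00706% in EP2/EP4KO. Neither list had overlapping ranges in any genotype. Markers of macrophages and dendritic cells were also lower without overlap in stimulated EP2/EP4KO cells (0.0105% to 0.0121% and 0.00842% to 0.0101%). The part of these markers in the falls of Il12rb2, Il10ra and Tgfbr2, and of Il18r1 in EP2KO, was not tested. No difference between genotypes in the effect of anti-NK1.1 was called (background 0% for EP2KO minus WT and for EP2/EP4KO minus EP2KO, by edgeR and DESeq2). At an unadjusted p under 0.05 were 2 and 1 of the 9, beside 4.29% and 2.12% of all genes.

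Few genes were called between untreated genotypes. EP2KO against WT had a background of 0.0653% without and 0.0746% with stimulation, and EP2/EP4KO against EP2KO of 0.056% and 0.0839%. None of the 9 genes was called in these 4 comparisons by edgeR or DESeq2, and 1, 2, 0 and 1 of them had an unadjusted p under 0.05. Of all genes, 7.22%, 6.14%, 5.3% and 4.92% had such a p. For EP2KO against WT the 1 receptor gene in unstimulated cells was Il21r, higher in EP2KO as given above. Il18r1 and Il27ra were the 2 in stimulated cells, lower in EP2KO than in WT by -0.43 ± 0.18 and -0.64 ± 0.26.

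Among 24 receptors for other cytokines, 16 were tested. Anti-NK1.1 in WT raised 3 and lowered 5 of the 16, where 42% of all genes were called. Il2ra, the alpha chain of the IL-2 receptor, rose from 105 to 802 CPM (2.94 ± 0.20), and Il4ra rose by 0.65 ± 0.15. Ifngr1, a chain of the interferon-gamma receptor, fell from 1160 to 228 CPM (-2.34 ± 0.15), and Ifnar2 fell by 1.25 ± 0.19. In stimulated WT cells with PGE2, 4 rose and 1 fell (background 15.6%): Ifngr1 rose to 1020 CPM (2.16 ± 0.15), Il2rb rose from 590 to 1070 CPM (0.86 ± 0.12), Tnfrsf1b rose by 0.55 ± 0.13, and Il2ra fell to 274 CPM (-1.55 ± 0.19). With CM these were 4 and 2 (background 15.4%), with Ifngr1 at 869 CPM and Il2ra at 284 CPM. In unstimulated WT cells PGE2 raised 2, Tnfrsf1b by 0.66 ± 0.15 and Ifngr1 by 0.66 ± 0.17 (background 2.97%), and CM raised these (background 8.23%) and Il2rb (0.42 ± 0.11). Ifngr1 and Il12rb2 thus shared a pattern in WT, lower with anti-NK1.1 and higher with PGE2 in both states.

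**Figure D5:**
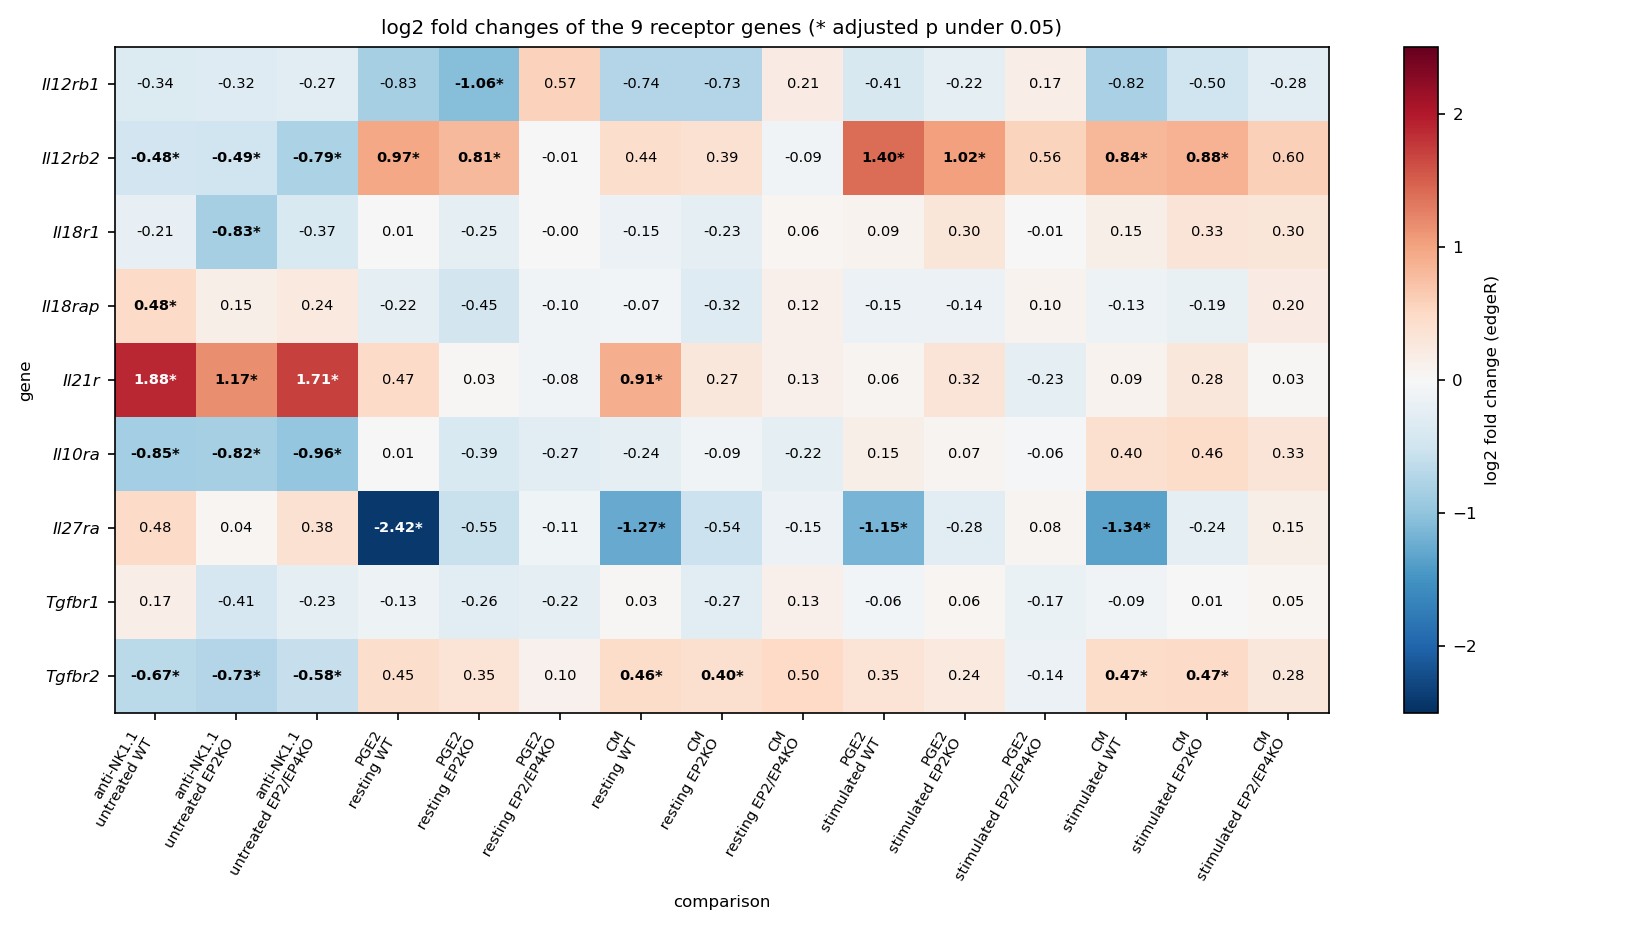
log2 fold changes from edgeR of the 9 receptor genes (rows) in the 15 comparisons within a genotype (columns; resting means unstimulated), with red for higher and blue for lower. An asterisk marks an adjusted p under 0.05. The EP2/EP4KO columns for PGE2 and CM hold no asterisk, and the Tgfbr1 row holds none.

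Genes whose group means of log2 CPM most resembled each receptor gene over the 18 groups were taken as the 3 highest by Pearson r. For Il21r they were Ahcyl1 (0.987), Spty2d1 (0.973) and Setbp1 (0.968), and for Tgfbr2 they included Syf2 (0.978) and Laptm5 (0.972). Il12rb2 was most like Trf, the transferrin gene (0.952), Nabp1 (0.943) and Dgat1 (0.932). Il10ra was most like Septin1 (0.947), Eci2 (0.946) and Acaa2 (0.944), the last pair encoding enzymes of fatty acid oxidation. Il18rap was most like Zap70, a kinase of antigen and NK receptor signalling (0.933), Jaml (0.931) and Stap1 (0.903), and Il18r1 like Ank (0.897), Klrd1, which encodes CD94 (0.894), and Skap1 (0.893). Il27ra was most like Tnfsf10, which encodes TRAIL (0.914), Rassf5 (0.908) and Coro2a (0.904). The weakest likenesses were those of Il12rb1 (Bcl7b 0.816, Ptpn4 0.809, Dtymk 0.799) and Tgfbr1 (Lax1 0.787, Manea 0.782, Prps2 0.769). Among the receptor genes themselves, the r of pairs over the group means ran from -0.855 (Il21r and Il10ra) to 0.81 (Il10ra and Tgfbr2). It was -0.808 for Il12rb2 and Il27ra and -0.5 for Il12rb1 and Il12rb2. Stimulation, which 9 of the 18 groups received, is shared by many of the points, so these values describe the groups.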

How the data were processed

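The authors deposited raw counts per gene symbol, whole numbers in 1 table of 36273 symbols and 64 libraries. Libraries carried unique molecular identifiers, per the labels' protocols. The aligner, the annotation and whether molecules or reads were counted: not given in the sources used here. The submitters' processing notes name GRCm38 (mm10) and DESeq2. Every column matched 1 sample.

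Genes were kept with filterByExpr (minimum count 10), leaving 10723 with 99.21% of counts. All libraries were fitted together, 1 mean per group, with edgeR's quasi-likelihood test (edgeR 4.0.16, limma 3.58.1, R 4.3.3) after trimmed mean of M values normalisation. Benjamini-Hochberg adjustment covered 10723 genes in each of 41 comparisons. Intervals are 95%. The fit was tested on simulated data. Totals of about 1000000 counts limit the precision of genes with few counts.

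Alternatives were another normalisation (RLE), no filter, DESeq2 1.42.0, the replicate number as a block, and leaving out each of the 64 libraries. Same-numbered libraries deviated together, with every pair's correlation over 0.1, in 8 of the 21 comparisons checked, with 3 or 4 pairs each: anti-NK1.1 in EP2/EP4KO, PGE2 in unstimulated EP2KO and EP2/EP4KO, PGE2 in stimulated WT and EP2/EP4KO, CM in stimulated EP2/EP4KO, and CM against PGE2 in EP2/EP4KO in both states. The pairing comes from these correlations and not from the labels. The check was made for comparisons of groups within a genotype and not for interactions. The block was fitted over all groups of a genotype, also those whose comparisons did not meet the check.

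The receptor genes and lists were chosen with earlier results of these data known. Named genes are the 9, up to 4 called members with the smallest p per list and comparison in WT, and the 3 genes most like each of the 9 among genes whose log2 CPM averaged 4 or more, passing over predicted genes and antigen receptor segments. Of the genes most like Tgfbr2, 1 is not reported here, nor is the level of 1 marker gene.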

Additional observations from a re-analysis of the deposited data

Results flagged for a closer look

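In 99 sets of 4 libraries (a receptor gene in a group), 4 held a library far from the other 3, and chance flags about 5% of such sets. Il18r1 was at 234.8 CPM in replicate 1 of unstimulated EP2KO cells with PGE2, against 197.6 to 201.5 CPM in the others. Il21r was at 21.8 CPM in replicate 1 of untreated unstimulated WT cells, against 25.52 to 25.75 CPM. It was at 110.4 CPM in replicate 1 of stimulated EP2KO cells with CM, against 97.46 to 99.24 CPM. Il27ra was at 6.813 CPM in replicate 1 of unstimulated WT cells with CM, against 8.198 to 8.256 CPM. The gaps come with 3 other libraries that lie close together.

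The effect of CM on Il21r in WT differed between stimulated and unstimulated cells by -0.822 on the log2 scale, by edgeR's test of the interaction (adjusted p = 0.0311). CM changed it by 0.91 ± 0.18 without stimulation, where untreated cells had 24.7 CPM, and by 0.09 ± 0.14 with it, where untreated cells had 91.0 CPM.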

How the results depend on the processing

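Of the 41 counts of called receptor genes, 40 stayed within 1.5 times under RLE normalisation, 37 without the filter on low counts and 40 under DESeq2. Most of the 41 were 0 in the main fit, and a count that stayed at 0 is among those unchanged. Of the 31 called fold changes, 30 stayed called under RLE normalisation, 25 without the filter and 30 under DESeq2. No fold change of a called gene reversed under any alternative. RLE normalisation lowered the count for CM in unstimulated EP2KO from 1 to 0. Without the filter the count fell from 2 to 1 for PGE2 in unstimulated EP2KO, from 1 to 0 for CM in unstimulated EP2KO, from 2 to 1 for CM in stimulated EP2KO and from 1 to 0 for the change of the CM effect with stimulation in WT. DESeq2 gave 1 in place of 2 for PGE2 in unstimulated EP2KO. With the replicate block the count rose from 2 to 4 for PGE2 in unstimulated EP2KO and from 0 to 2 for the PGE2 effect in EP2/EP4KO minus EP2KO (unstimulated). It went from 4 to 5 for anti-NK1.1 in EP2/EP4KO. In WT it went from 2 to 3 for PGE2 and from 3 to 4 for CM, in unstimulated and in stimulated cells alike. Of these WT comparisons, only PGE2 in stimulated cells met the replicate check. The added call for CM in stimulated WT was Il12rb1 (-0.82 ± 0.31, edgeR adjusted p = 0.0437). The count also rose from 0 to 1 for CM against PGE2 in stimulated WT (Il12rb2, -0.56 ± 0.13, edgeR adjusted p = 0.0187), where the replicate check was not met. Genes called in the whole table rose under the block from 318 to 679 (WT) and 338 to 646 (EP2KO) for PGE2 and from 883 to 1755 and 469 to 833 for CM in unstimulated cells, and in stimulated EP2KO from 782 to 1254 (PGE2) and 1117 to 1713 (CM). They rose from 8 to 70 for CM in stimulated EP2/EP4KO, from 0 to 9 for CM in unstimulated EP2/EP4KO, and from 0 or 1 to between 1 and 24 for CM against PGE2. For the change of an effect with stimulation they rose from 140 to 367 (PGE2, WT), 35 to 167 (PGE2, EP2KO), 235 to 919 (CM, WT) and 68 to 220 (CM, EP2KO). For EP2/EP4KO minus EP2KO they rose from 38 to 96 (PGE2) and 23 to 70 (CM) without stimulation and from 102 to 259 and 37 to 169 with it. In 4 other comparisons they rose from 0 to at most 3. The block ended no call among the 31 called fold changes. It was numbered within genotype, and the 4 comparisons between untreated genotypes were not run with it. Leaving out 1 library at a time gave 3 to 5 called genes for anti-NK1.1 in WT, 4 to 6 in EP2KO, 1 to 2 for PGE2 in unstimulated WT and in unstimulated EP2KO, 0 to 1 for CM in unstimulated EP2KO, 2 to 3 for CM in unstimulated WT, 3 to 5 for CM in stimulated WT, 2 to 3 for CM in stimulated EP2KO and for PGE2 in stimulated WT, 0 to 1 for the change of the CM effect with stimulation in WT, and 0 to 1 for the PGE2 effect in EP2/EP4KO minus EP2KO. The cause of these changes was not tested. Depth limits Il27ra and Il12rb1 most, with as few as 3 and 5 counts in a library.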
